A study of Homo sapiens with 4 samples.

Results

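The 5 Rel subunits of NF-kB and 5 of its inhibitors were compared between human mammary epithelial cells depleted of the kinase PAK1 and control cells. The subunits are NFKB1, NFKB2, REL, RELA and RELB, and the inhibitors are NFKBIA, NFKBIB, NFKBIE, NFKBIZ and TNFAIP3. Members were taken by gene name from the non-control spots of each array, which gave 10 of 27193 gene names, with 12 probes and 48 spots. All 10 were well above background on all 4 arrays, so the filter on dim probes removed none of them, and no member spot was saturated.

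The cells were MCF10A.B2, a line made from the non-transformed breast epithelial line MCF10A by adding a chimeric ErbB2 (Her2) receptor that the synthetic dimerizer AP1510 switches on. The control arrays are labelled only as control cells, wild type for Pak1, and the PAK1 shRNA arrays as the same line with a stable, tetracycline-inducible short hairpin RNA against PAK1. Both groups were grown in DMEM/F12 with horse serum, starved of serum for 3 h and then given AP1510 for 15 min, and each group had 2 single-colour arrays. The sources used here do not say whether the hairpin line is a single clone or a pool, or how long the hairpin was induced. No array of a non-targeting hairpin or of unstimulated cells was analysed here. The design text speaks of cells derived from different tumours and the sample labels of a cell line, and the sources used here leave unsaid whether the 2 arrays of a group come from separate cultures, so p-values measure only the spread between these arrays. All 4 arrays lay on 1 slide, with both control arrays in the first positions and both PAK1 shRNA arrays in the last, so position and group cannot be told apart.

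NF-kB is a family of dimeric transcription factors built from Rel subunits. In resting cells the dimers are held in the cytoplasm by IkB proteins, or by the IkB-like parts of the NFKB1 and NFKB2 precursors, until the IkB kinases mark these inhibitors for destruction. NFKBIA, TNFAIP3 and several subunit genes are themselves well known targets of NF-kB, so the pathway feeds back on its own components. In bulk RNA a change in the level per cell and a change in the share of cells that express a gene cannot be told apart.

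Promoter sequence was looked at first, since many of these genes are known NF-kB targets. RefSeq windows on GRCh38.p14 (250 bases upstream of an annotated transcription start and 50 after it) were found for 8 of the 10 members, all but RELB and NFKBIE, with 14 windows in all because several genes have more than 1 start. The upstream 250 bases were searched on both strands for the kappaB consensus, the 10-base motif bound by NF-kB dimers, and overlapping matches were kept. It was found in 9 of the 14 windows (64.3%), against 5.21% of all 35116 windows of the same length. Counted by gene, 7 of the 8 members had a match, against 6.28% of all 27305 genes with a window. RELA was the member with no match in either of its windows, which says only that these letters were absent there. The stretches below are the matches nearest the first annotated start of the 5 genes that have one there, 5′ to 3′ on the gene's strand, with the matching bases in capitals; they are shown because they come from the genes with the largest changes (NFKBIZ, TNFAIP3, NFKBIA) and members with smaller ones (NFKB1, REL).
NFKBIA, chr14:35404801-35404850, minus strand: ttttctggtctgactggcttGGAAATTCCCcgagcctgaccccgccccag
TNFAIP3, chr6:137867172-137867233, plus strand: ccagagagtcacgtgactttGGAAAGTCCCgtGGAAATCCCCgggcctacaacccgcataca
NFKBIZ, chr3:101827747-101827796, plus strand: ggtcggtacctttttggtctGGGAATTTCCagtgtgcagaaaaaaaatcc
NFKB1, chr4:102501290-102501339, plus strand: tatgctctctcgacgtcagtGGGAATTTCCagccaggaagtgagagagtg
REL, chr2:60881507-60881557, plus strand: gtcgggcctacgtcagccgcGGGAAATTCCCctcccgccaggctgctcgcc

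Of the stretches shown, those of NFKB1 and NFKBIZ carried the same 10 letters on the gene's strand. They lay at 49 to 40 bases upstream of the start in NFKB1 and at 223 to 214 bases upstream in NFKBIZ. A plus-strand match in NFKBIB, at 28 to 19 bases upstream of a later start, had these letters too. The TNFAIP3 window held separate matches at 67 to 58 and at 55 to 46 bases upstream, and the NFKBIA match lay at 81 to 72 bases upstream. In REL overlapping matches on both strands lay between 47 and 37 bases upstream. The remaining matches were in windows of later starts of NFKB2, NFKBIB and NFKBIZ. A match is a description of the letters and not a site shown to be bound.

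PAK1, the targeted kinase, was lower in the cells that carry the hairpin. The control arrays gave normalized log2 intensities of 11.19 and 11.27, and the arrays with the hairpin 10.44 and 10.51. The groups did not overlap, and the level was 59.2% of control (log2 fold change -0.76, SE 0.08, adjusted p = 0.00018, limma). Across the 21921 genes tested, 30.6% were higher and 32% lower in the PAK1 shRNA cells at an adjusted p under 0.05, and in 42% both PAK1 shRNA arrays lay above both control arrays. Calls on single genes are therefore common in this comparison, and the members are read against those shares.

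All 10 members were higher in the PAK1 shRNA cells and none was lower. In each of them both PAK1 shRNA arrays lay above both control arrays. The members had a median log2 fold change of 1.31, with 0.99 over the subunits and 1.90 over the inhibitors, beside 0.02 over all genes tested. At least 2-fold higher levels were found for 6 members, namely NFKB2 and RELB among the subunits and NFKBIA, NFKBIE, NFKBIZ and TNFAIP3 among the inhibitors, where 8.8% of all genes tested were called at least 2-fold higher. The values that follow are normalized log2 intensities of each gene's brightest probe, with probe positions on hg19, and no probe's level is set against another's.

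**Figure D1:**
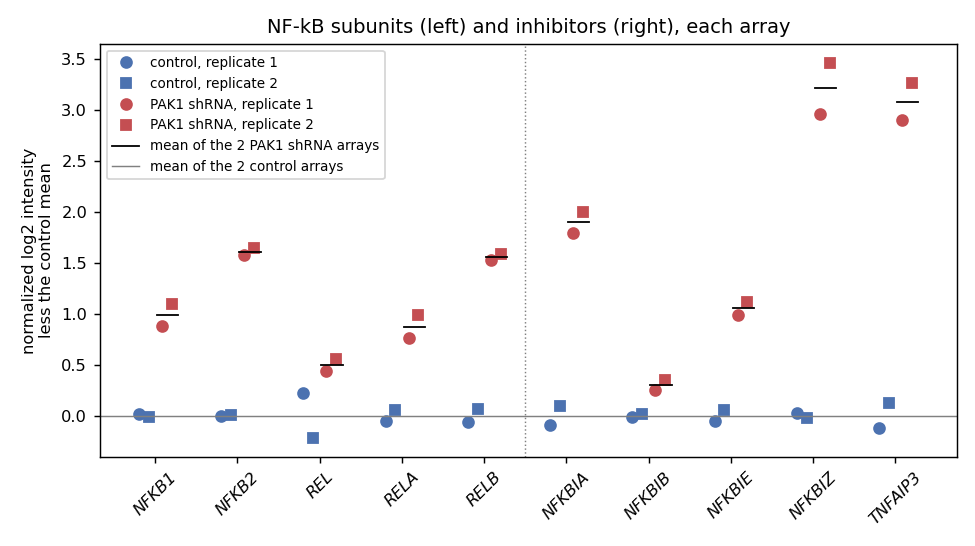
Normalized log2 intensity of each member on each array less the mean of its 2 control arrays (vertical axis); blue symbols are control arrays, red symbols PAK1 shRNA arrays, and the short black line is the mean of the 2 PAK1 shRNA arrays. The PAK1 shRNA means range from 0.30 (NFKBIB) to 3.22 (NFKBIZ) above control, and only REL shows control arrays about as far apart as the groups.

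Among the subunits, the partners of the non-canonical branch rose the most. NFKB2 encodes p100, the precursor that is cut to p52. Its probe maps to chr10:104161053-104161229, a span of 177 bases of the genome, against 60 bases for the other member probes. This span is the distance between the mapped ends and not the length of the probe. The intensity of NFKB2 was 9.24 on both control arrays, against 10.82 and 10.89 with the hairpin. This was a 3.05-fold rise (log2 fold change 1.61, SE 0.07, adjusted p = 6.2e-06). RELB, the usual partner of p52 (chr19:45541385-45541444), measured 12.79 and 12.92 in control and 14.38 and 14.45 in PAK1 shRNA cells. RELB rose 2.95-fold (log2 fold change 1.56, SE 0.08, adjusted p = 1.0e-05), and for both genes the gap between groups was many times the gap between arrays of a group.

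NFKB1 and RELA, which make the p50 and p65 subunits of the classical dimer, changed by less. NFKB1 (chr4:103537856-103537915) measured 12.09 and 12.06 in control cells against 12.95 and 13.17. The rise was 1.99-fold (log2 fold change 0.99, SE 0.09, adjusted p = 0.00013). RELA (chr11:65421651-65421710, minus strand) measured 10.73 and 10.84 against 11.54 and 11.77, a 1.83-fold rise (log2 fold change 0.87, SE 0.10, adjusted p = 0.00032). A second, dimmer RELA probe (chr11:65421986-65422045) gave 9.68 and 9.92 against 10.60 and 10.84, with a log2 fold change of 0.92 (SE 0.12) that does not differ from the first beyond its error.

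REL, the c-Rel subunit best known from lymphoid cells, changed the least of the subunits. Its probe (chr2:61149596-61149655) measured 10.60 and 10.16 in control against 10.82 and 10.94 in PAK1 shRNA cells. The control arrays differed by about as much as the groups, and the log2 fold change was 0.50 (95% confidence interval 0.15 to 0.85, adjusted p = 0.023). Before normalization the processed signals overlapped, at 2006 and 1120 in control and 1409 and 1546 in PAK1 shRNA cells. Without control replicate 2 the log2 fold change was 0.28 (adjusted p = 0.059), without PAK1 shRNA replicate 1 it was 0.56 (adjusted p = 0.051) and without PAK1 shRNA replicate 2 it was 0.44 (adjusted p = 0.10), so the call was lost each time.

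The largest changes among the members were in NFKBIZ and TNFAIP3. NFKBIZ encodes IkB-zeta, a nuclear IkB protein that binds NF-kB on DNA and is needed for a subset of its secondary target genes, IL6 among them. Its probe (chr3:101578904-101578963) measured 8.71 and 8.66 in control and 11.65 and 12.15 in PAK1 shRNA cells. NFKBIZ was 9.29-fold higher (log2 fold change 3.22, 95% confidence interval 2.84 to 3.60, adjusted p = 8.2e-06) and was 201st of 21921 genes in order of log2 fold change.

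TNFAIP3 encodes A20, the ubiquitin-editing enzyme that shuts off signalling from the TNF and Toll-like receptors to the IkB kinases. Its probe (chr6:138203679-138203738) measured 9.12 and 9.36 against 12.14 and 12.51. The rise was 8.48-fold (log2 fold change 3.08, 95% confidence interval 2.74 to 3.43, adjusted p = 6.5e-06), placing TNFAIP3 223rd of all genes tested. Before normalization the TNFAIP3 signals were 731 and 666 in control and 3986 and 5222 in PAK1 shRNA cells, and those of NFKBIZ were 430 and 306 against 2362 and 3293. The confidence intervals of both genes lay above those of the other 8 members, whose highest upper bound was 2.16, in NFKBIA.

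The classical IkB proteins, which hold NF-kB dimers in the cytoplasm, moved by unequal amounts. NFKBIA (IkB-alpha, chr14:35870788-35870847, minus strand), the fast-resynthesized inhibitor, measured 13.65 and 13.84 in control and 15.54 and 15.75 in PAK1 shRNA cells, a 3.74-fold rise (log2 fold change 1.90, SE 0.11, adjusted p = 1.4e-05). NFKBIE (IkB-epsilon, chr6:44226558-44226617, minus strand) measured 11.04 and 11.14 against 12.08 and 12.21, a 2.08-fold rise (log2 fold change 1.05, SE 0.08, adjusted p = 6.4e-05). In both genes the groups stood well apart.

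NFKBIB, which encodes IkB-beta, changed the least of the 10. Its brightest probe (chr19:39398611-39398670) measured 9.07 and 9.09 in control and 9.33 and 9.43 in PAK1 shRNA cells, with a log2 fold change of 0.30 (95% confidence interval 0.12 to 0.48, adjusted p = 0.013). A second probe for another NFKBIB transcript (chr19:39397888-39397947) gave 8.79 and 8.92 against 8.92 and 8.91 and did not pass the test (log2 fold change 0.06, 95% confidence interval -0.13 to 0.25, adjusted p = 0.55). With the mean of both probes the gene was no longer called, and the processed signals of the brightest probe before normalization overlapped, at 649 and 498 against 478 and 504.

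**Figure D2:**
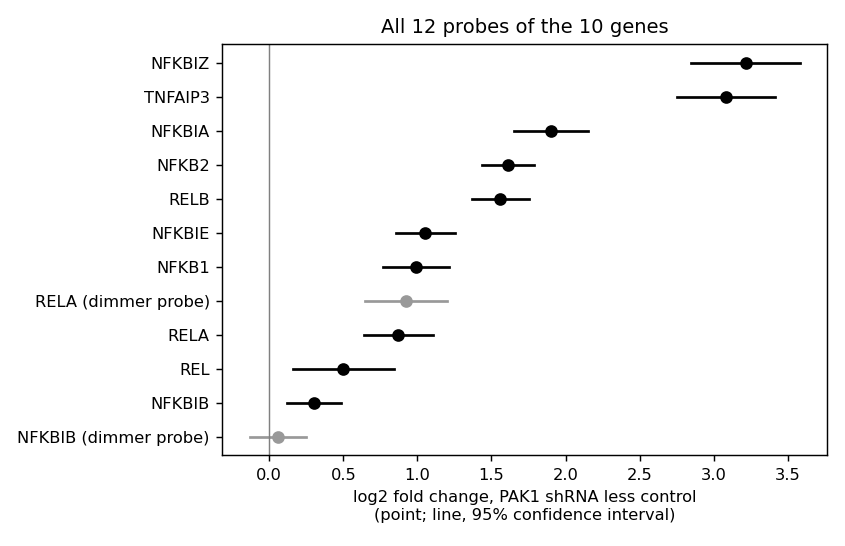
Log2 fold change between PAK1 shRNA and control cells (horizontal axis, points) with 95% confidence intervals (lines) for all 12 probes of the 10 genes, from a limma fit over all probes; grey marks the dimmer probe of RELA and of NFKBIB. Only the interval of the dimmer NFKBIB probe crosses 0, and NFKBIZ and TNFAIP3 stand above all others.

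The probes of NFKB1, NFKB2, RELA and NFKBIA were printed 10 times on each array, which shows the measurement error within an array. These spots share 1 labelled sample and are not replicates of a condition. The processed signal of NFKBIA ran from 14099 to 17607 over the 17 unflagged control spots and from 39159 to 49071 over the 19 spots of the PAK1 shRNA arrays. For NFKB2 the spots ran from 562 to 1005 in control and from 1374 to 1601 in PAK1 shRNA cells, and for NFKB1 from 4202 to 5992 and from 6315 to 8130. RELA came closest to overlap, with 1685 to 2219 in control and 2237 to 2712 in PAK1 shRNA cells. In all 4 genes no spot of a control array reached the lowest spot of a PAK1 shRNA array even before normalization, although the control arrays were brighter as a whole, with median processed signals over all spots of 450 and 338 against 279 and 272.

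**Figure D3:**
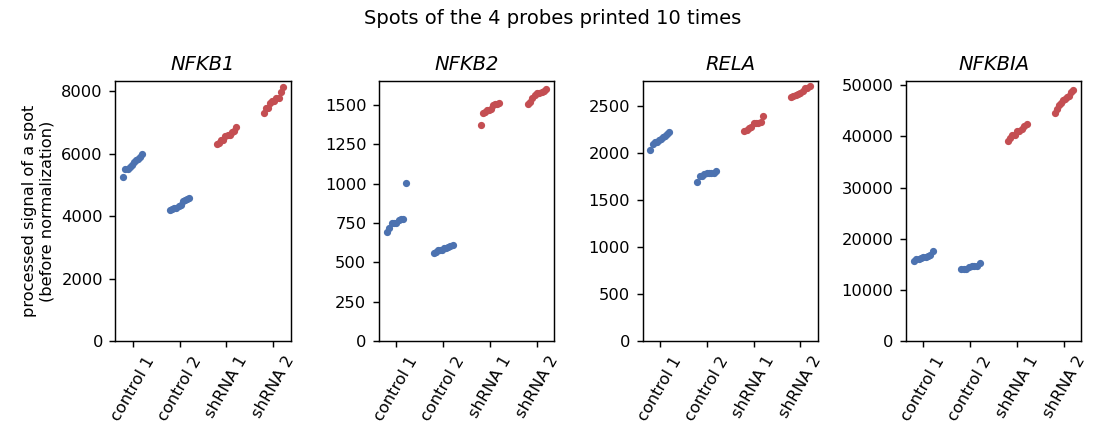
Processed signal of every unflagged spot (vertical axes, from 0, before normalization) of the 4 member probes printed 10 times, in ascending order within each array; blue is control, red PAK1 shRNA. The groups do not overlap in any of the 4 genes, with the narrowest gap in RELA, between 2219 and 2237.

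The IkB kinases, and the kinases upstream of or related to them, did not move together. Of the 6 genes of this list, 4 were higher, 1 was lower and 1 did not pass the test. CHUK, the IKK-alpha catalytic subunit, fell from 11.97 and 12.23 in control to 11.39 and 11.38 in PAK1 shRNA cells, which is 61.0% of control (log2 fold change -0.71, adjusted p = 0.00095). IKBKB, the IKK-beta subunit of classical signalling, measured 12.35 and 12.18 against 12.24 and 12.22 (log2 fold change -0.03, 95% confidence interval -0.24 to 0.17, adjusted p = 0.76), and its sign turned with the normalization. IKBKG, the regulatory subunit NEMO, measured 11.67 and 11.40 against 12.01 and 12.13 (log2 fold change 0.53, adjusted p = 0.0049).

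Kinases outside that core complex were higher. MAP3K14 (NIK), which starts the non-canonical branch through IKK-alpha, measured 12.29 and 12.06 against 12.91 and 13.08, a 1.76-fold rise (adjusted p = 0.00059). TBK1 and IKBKE, the related kinases best known for switching on interferon genes, also rose. TBK1 measured 11.24 and 11.20 against 12.31 and 12.35 (2.16-fold, adjusted p = 2.6e-05). IKBKE measured 8.08 and 8.27 against 10.05 and 10.14 (3.79-fold, adjusted p = 7.3e-06).

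Other brakes of the pathway and IkB-like proteins were mixed. Of 15 listed genes, 8 were higher, 3 lower and 4 did not pass the test, with a median log2 fold change of 0.27. The A20-binding proteins TNIP3 (log2 fold change 2.02) and TNIP1 (1.69), the RNase ZC3H12A (1.96), which degrades IL6 messenger RNA, and the nuclear IkB protein BCL3 (1.30) had the largest changes among those above background on every array. All 4 passed at adjusted p of 4.8e-05 or lower.

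Upstream of the kinases, ligands of the pathway were mostly higher. Of 12 listed ligand genes 10 were tested, and 9 were higher and none lower (median log2 fold change 1.70). Over the 9 well above background on all 4 arrays, which leaves out TNF, 8 were higher and the median was 0.76. TNFSF10 (TRAIL) measured 10.74 and 10.22 in control and 16.47 and 16.89 in PAK1 shRNA cells (log2 fold change 6.20, adjusted p = 1.7e-06). LTB, a ligand of the lymphotoxin beta receptor, had a log2 fold change of 3.95, the epidermal cytokine IL36G one of 3.09, and TNFSF13B (BAFF) one of 2.65, with non-overlapping arrays in each.

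IL1B, which encodes the cytokine interleukin 1 beta, rose 1.64-fold, from 13.12 and 13.40 to 13.80 and 14.15 (adjusted p = 0.0045). TNF, which encodes the cytokine that gave the pathway its best studied input, was measured on 3 arrays only, since its spot on control array 1 was flagged as non-uniform and left out. It measured 7.29 on the remaining control array and 11.40 and 12.07 on the PAK1 shRNA arrays (log2 fold change 4.44, SE 0.27, adjusted p = 5.3e-05), with the spread of the control group taken from the other arrays and genes. With the flagged spot kept, the log2 fold change was 3.82, and with normexp fitted on all spots it was 3.38.

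Of the receptors, 8 of 14 tested genes were higher, none was lower and 6 did not pass the threshold (median log2 fold change 0.40). TLR3, the sensor of double-stranded RNA, measured 11.94 and 11.82 in control and 15.25 and 15.30 in PAK1 shRNA cells (log2 fold change 3.39). TLR4, the lipopolysaccharide receptor, had a log2 fold change of 2.46, the TWEAK receptor TNFRSF12A one of 1.18 and RANK (TNFRSF11A) one of 0.80.

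Among 23 adaptors and ubiquitin ligases, 16 were higher, 4 lower and 3 did not pass the test (median log2 fold change 0.69). MYD88, the adaptor of Toll-like and interleukin 1 receptors, measured 11.38 and 11.25 against 14.33 and 14.47 (log2 fold change 3.09). The ubiquitin ligase BIRC3 (log2 fold change 2.92), the receptor-associated protein IRAK2 (2.89) and RBCK1 (2.29), a subunit of the linear ubiquitin ligase complex, followed.

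Most known target genes of NF-kB were higher. Of 34 listed targets 32 were tested, and 28 were higher, 1 was lower and 3 did not pass the test (median log2 fold change 2.26). These counts include CXCL8 and CSF2, above background on no control array, and TNFAIP6, CCL5 and IFNB1, above background on 1 control array. All of these entered the test only through the PAK1 shRNA arrays, where they were well above background on both. CSF2 stayed dim there, at 6.68 and 7.19, and the others were brighter. Over the 27 targets well above background on all 4 arrays, 23 were higher, 1 was lower and 3 did not pass the test (median 2.14). Because many such genes also respond to interferon, those marked as interferon-induced were put in a second list and the remaining targets in a first. This division was not checked against a set of interferon-responsive genes. The first list can therefore hold genes that interferon also induces, and it is not a list of targets free of interferon. Of the 20 targets of the first list above background on all 4 arrays, 17 were higher and 1, PLAU, was lower (median 1.95). Of the 7 such targets of the second list, 6 were higher and none lower (median 2.97). IFNB1, the interferon beta gene of the second list, had a log2 fold change of 5.04 and was above background on 1 control array. How far interferon signalling takes part in either list, or in the other pathway genes above, was not tested.

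IL6, a cytokine gene controlled by NF-kB and by IkB-zeta, measured 8.12 and 8.43 in control and 14.80 and 15.63 in PAK1 shRNA cells (log2 fold change 6.94, adjusted p = 2.8e-06). The chemokine CCL20 measured 7.35 and 7.61 against 12.55 and 13.09 (log2 fold change 5.34). Mitochondrial superoxide dismutase SOD2 had a log2 fold change of 3.61 and the neutrophil chemokine CXCL1 one of 3.50. Of the targets shared with interferon that were above background on all 4 arrays, CXCL10 measured 6.45 and 6.57 against 17.29 and 18.04 (log2 fold change 11.15, and 9.60 to 13.49 over the alternatives), and ICAM1 (3.33), PSMB9 (3.09) and IRF1 (2.97) came next. None of these probes was saturated on any array. Of the listed pathway genes, TNFSF11, CD40LG, TLR2 and VCAM1 were too dim to be tested and TAP1 was flagged on 1 array of each group, while LTBR, MAP3K7, NFKBIL1 and OTULIN, like TNF, were fitted on 3 arrays because 1 was flagged.

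**Figure D4:**
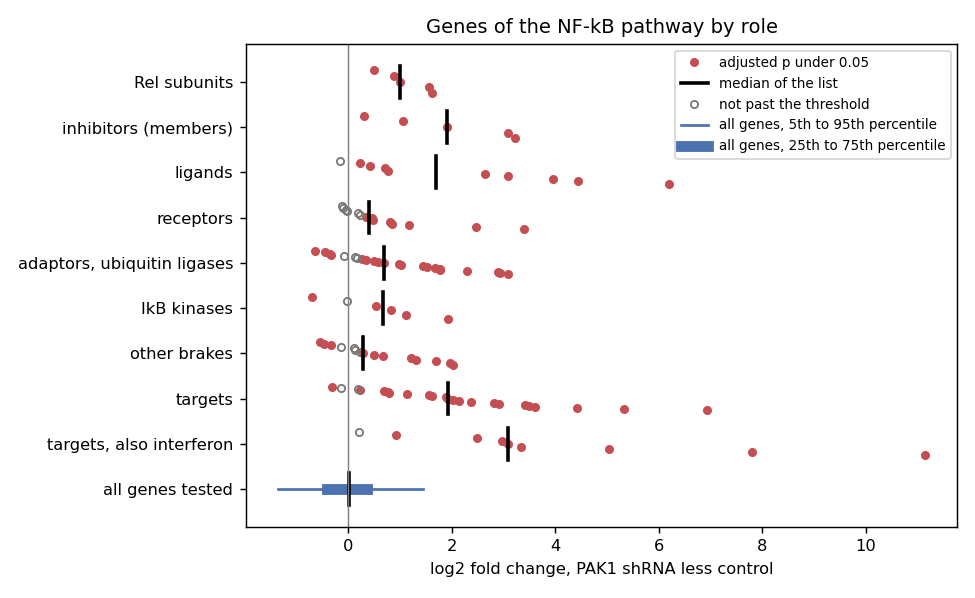
Log2 fold change between PAK1 shRNA and control cells (horizontal axis) for every tested gene of each list; filled red points passed the threshold, open points did not, black bars are list medians, and the blue bar and line give the 25th to 75th and 5th to 95th percentiles of all genes. The medians are 0.99 for the Rel subunits and 1.90 for the inhibitors. Targets not marked as interferon-induced have a median of 1.92, and those marked as also interferon-induced 3.09. All genes have a median of 0.02 and a 95th percentile of 1.45.

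Markers of the labelled cell type were present. All 8 mammary basal epithelial markers were well above background on every array, with KRT5, KRT14, KRT17 and TP63 lower and CDH1 and CDH3 higher in the PAK1 shRNA cells, and their summed processed signal was 595000 and 436200 in control and 339100 and 338000 in PAK1 shRNA cells. These sums are taken before normalization, when the control arrays were brighter as a whole, and the median normalized log2 fold change of the 8 genes was -0.42. The leukocyte list had a summed signal of 27840 and 20840 in control and 44940 and 49800 in PAK1 shRNA cells, and 4 of its 8 tested genes were higher, with log2 fold changes of 3.75 for CD68, 1.23 for CD14 (fitted without PAK1 shRNA array 2, where it was flagged), 0.65 for CSF1R and 0.46 for ITGAM. The leukocyte-defining PTPRC (CD45) and the lymphocyte genes CD3E and MS4A1 did not pass the test, with log2 fold changes between -0.06 and 0.14. The summed signal of the 6 fibroblast genes lay between 348 and 736 and that of the 5 endothelial genes between 520 and 1106 over the 4 arrays. Within them LUM (log2 fold change 1.79), COL1A1 (0.87) and VWF (0.37) were higher and PECAM1 (-1.56), PDGFRB (-0.58) and TEK (-0.33) lower. The part of these markers in the changes of the NF-kB genes was not tested.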

How the data were processed

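The authors deposited 4 single-colour Agilent scanner files, made with Feature Extraction 9.5 per the labels (9.5.3.1 per the file headers), which hold the intensity of each spot, its local background and 0 or 1 flags (other), and a table of log2 values of the same arrays, for which the study's methods give normexp correction and quantile normalization in limma; neither holds columns of the authors' own comparisons. In R 4.3.3 and limma 3.58.1, mean intensity less background was corrected by normexp (offset 50), fitted on each array without spots of flagged local background, quantile normalized, and averaged over the spots of a probe after flagged spots were left out. The normexp fit was made without those spots because they moved its fitted mean to -666.3 and -739.7 on the control arrays, against -9.20 and -12.1 without them. Dim probes were dropped unless both arrays of either group held them well above background, the brightest probe stood for its gene, and 21921 genes were fitted with lmFit and eBayes, adjusting p-values by Benjamini-Hochberg and calling genes under 0.05.

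Genes with 1 flagged array (889) were fitted on their remaining arrays, a choice made after TNF was seen to have one. With 2 arrays against 2, an exact permutation test cannot go below p = 0.333, and the number of arrays limits the precision. Members and lists were chosen with earlier results of these data known. The text names all members and IkB kinases, PAK1, TNF, IL1B and, from each other list, the 4 largest log2 fold changes among called genes above background on all arrays; PLAU, the markers and other genes outside this rule are named only to complete a count or a check. The values of 1 leukocyte marker are not reported here. OTULIN was found under its older symbol FAM105B. Replicate numbers were not used as pairs in the main fit. The deviations of control 1 and PAK1 shRNA 1 had a correlation of 0.00766 over 26301 probes, a value over all probes that cannot show whether the arrays were paired. Alternatives changed the background correction, normalization, filter, flags, probe rule, values, test, block and replicates; a slide block was not run because there is 1 slide. The limma fit was tested on simulated data. Promoter windows came from RefSeq, and no protein sequence was used.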

Additional observations from a re-analysis of the deposited data

How the results depend on the processing

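Of the 10 members, 8 kept their direction and their call under all 18 alternatives (NFKB1, NFKB2, RELA, RELB, NFKBIA, NFKBIE, NFKBIZ and TNFAIP3); 8 to 10 members were called higher and none lower under each. NFKBIZ and TNFAIP3 had their lowest log2 fold change, 2.68 in both, with normexp fitted on all spots. REL was not called with the processed signal less the 75th percentile (0.51, adjusted p = 0.065), with the methods' t-test (adjusted p = 0.23), or without control replicate 2, PAK1 shRNA replicate 1 or PAK1 shRNA replicate 2 (range over left-out arrays 0.28 to 0.71). NFKBIB was not called with the mean of its probes (0.18, adjusted p = 0.071), with the methods' t-test (adjusted p = 0.062) or without PAK1 shRNA replicate 2 (0.25, adjusted p = 0.084). The methods' t-test, an unpaired test that they name in general and not for the arrays, where they name limma, called 8739 genes after Benjamini-Hochberg adjustment, against 13716 in limma, and 11539 at an unadjusted p under 0.05; 8 members passed it with adjustment and 9 without, and CHUK, IKBKG, MAP3K14 and IL1B did not pass with it. The log2 fold change of IKBKB turned to 0.020 with the processed signal, 0.031 with cyclic loess and 0.055 without control replicate 1, with a range of -0.122 to 0.055 over left-out arrays; the cause was not tested. Over all genes tested, the median log2 fold change became 0.11 with the processed signal and 0.14 with median centring, below the log2 fold change of every member under both settings. With the replicate block 14007 genes and 10 members were called, and no call on a member changed. Genes with a value on all 4 arrays only, an alternative chosen after seeing the data, gave 13341 calls and 10 members. No member's fold change moved by over 1.5 times, while that of 9 of the 33 other named genes did (LTB, IL36G, IRAK2, RBCK1, TNIP3, IL6, CCL20, CXCL10 and TNF). The log2 fold change ran from 1.25 to 2.96 in TNIP3, 4.30 to 6.08 in CCL20 and 9.60 to 13.49 in CXCL10, each between normexp on all spots and the processed signal. The call on these 9 genes did not change wherever they were tested. TNF was not tested with, among others, the methods' t-test, the filter on all 4 arrays or the authors' deposited log2 values, and IL6 was not tested with the deposited values. CXCL8, not well above background on either control array, was at least 3.65-fold higher.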
